A study of Mus musculus with 6 samples.

Results

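The cell cycle and proliferation genes are a list of 38 mouse genes that covers cyclins, cyclin-dependent kinases, replication factors, mitotic regulators and cell cycle inhibitors. They were chosen by name, and every probe set that carries only the symbol of a listed gene was taken. A total of 37 genes had such a probe set, 90 probe sets among 34945 with a single symbol, and Ccnb1 had none. Livers were profiled on 6 Affymetrix expression arrays, 3 with the genotype Mig-6 f/f and 3 with Mig-6 d/d, all from male mice of mixed background, 8 weeks of age, on standard chow and fasted for 24 h. Mig-6 is the protein of Errfi1, an inhibitor of the epidermal growth factor receptor, a receptor that carries growth signals into hepatocytes, and the comparison asks whether liver without it holds more cell cycle transcripts. The recombinase that made the d/d genotype, the part of Errfi1 that it removed, and whether each array holds a separate animal are not stated in what was used here. Reported p-values therefore cover the spread among these arrays, which may be technical. Errfi1 read 5494 ± 169 in f/f and 63.2 ± 4.37 in d/d (deposited intensity, SD, n = 3 each), in the direction the labels give.

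Cells enter the cycle when D-type cyclins with Cdk4 and Cdk6 lift the block that the retinoblastoma protein puts on E2F factors, after which cyclin E with Cdk2 starts DNA replication and cyclins A and B with Cdk1 drive mitosis. Most hepatocytes of an adult liver rest outside the cycle and return to it after loss of tissue, and mitogens that act on the epidermal growth factor receptor help them do so. Replication genes are known to be driven through E2F sites in their promoters. Mitotic genes are known to be held silent in resting cells through an element called CHR and driven through CCAAT boxes.

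Some of those elements can be seen in the promoters of part of the genes described below, and a few chosen promoters are shown as examples. RefSeq windows of 250 bases before and 50 after the transcription start (GRCm38.p6) were found for 31 of the 38 genes, 35 windows in all. The 7 genes without a window were Ccnd1, Ccnd2, Ccne2, Mcm4, Ccna2, Foxm1 and Aurkb. The stretches shown lie before the start on the strand of the gene, written 5′ to 3′. Top2a (chr11:99024197-99024297, minus strand), Cdk1 (chr10:69352913-69353002, minus strand) and Cdc20 (chr4:118437344-118437406, minus strand) have CHR and CCAAT letters in capitals, and Mcm6 (chr1:128359706-128359825, minus strand) has E2F and CCAAT letters in capitals, some of them on the opposite strand.
Top2a: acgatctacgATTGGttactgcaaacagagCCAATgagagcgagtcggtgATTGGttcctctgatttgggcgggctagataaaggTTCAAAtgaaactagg
Cdk1: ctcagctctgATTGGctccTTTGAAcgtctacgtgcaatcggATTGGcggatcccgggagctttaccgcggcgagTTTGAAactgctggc
Cdc20: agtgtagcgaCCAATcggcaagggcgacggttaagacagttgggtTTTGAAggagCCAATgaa
Mcm6: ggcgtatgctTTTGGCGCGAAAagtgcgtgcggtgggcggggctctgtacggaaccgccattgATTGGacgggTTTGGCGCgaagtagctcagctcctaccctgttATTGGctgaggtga

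The CHR letters TTTGAA, searched on both strands, were in 8 of the 35 windows, those of Mki67, Top2a, Cdk1, Ccnb2, Aurka, Plk1, Cdc20 and Mcm2, against 17.9% of all 32851 windows. Of these 8 genes, 7 act in late S phase, G2 or mitosis. E2F letters (TTTGGCGC, TTTCGCGC, TTTCCCGC or TTTGCCGC, both strands) were in 6 windows, those of Cdk2, Mcm3, Mcm5, Mcm6, Mcm7 and Cdk1, against 2.26% of all windows. In Mcm6 a pair of these words on opposite strands overlaps, which gives the longest run of capitals. CCAAT, on both strands, was in 25 windows of 24 genes, against 37.4% of all windows. A match shows that the letters are present and is no evidence that a factor bound there in these livers.

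In the whole series 1 array differed from the rest, f/f replicate 3. Its control probe sets for 18S ribosomal RNA averaged 3807, where the others had 218 to 455, and it correlated with the rest at 0.963 on average, against 0.978 to 0.981 for the others. Median intensities were 55.6 to 65.4. Among the genes of the list this array read highest for 15 of 31, where it read highest for 33.2% of all 13718 genes tested. It read lowest for 10 of 31, against 32.4% of all genes. After normalization Cdk6, Top2a and Ccna2 were among the genes for which it was lowest. The result for each gene is therefore given with this array and without it. Whether the 18S signal bears on these genes was not tested.

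Of the 37 genes with a probe set, 31 were above the filter on dim probe sets, which left out the lowest 40% by mean, at an intensity of 48.4. Ccne2, Mcm6, Tyms, Ccnb2, Birc5 and Bub1 lay under it. Ccna2 passed it through the d/d arrays, as its f/f mean lay under the filter. Its place among the genes counted below as higher in d/d therefore depends on those same arrays. None of the 31 differed between the genotypes past an adjusted p of 0.05 (limma with Benjamini-Hochberg adjustment over all 13718 genes), a threshold that 13 genes, 0.0948%, passed. Without f/f replicate 3 it was again 0 of 31, where 0.620% of all genes passed. At an unadjusted p under 0.05, 6 of the 31 differed against 7.82% of all genes tested. Ccnd1, Cdk6, Top2a and Ccna2 read higher in d/d (4 of 31, against 4.75% of all genes), and Ccnd3 and Cdkn1a read lower (2 of 31, against 3.07%). Groups did not overlap for these 6 and for Gadd45b, 7 of 31, against 14.7% of all genes, with 4 higher (7.90% of all genes) and 3 lower (6.79%). The same 6 genes had an unadjusted p under 0.05 without f/f replicate 3, where the share of all genes was 11.2%, and groups then did not overlap for 11 of 31, against 27.8%. Overlap is judged on normalized values. As deposited, the groups of Rrm2 (higher), Aurkb and Plk1 (both lower) did not overlap either, which made 10 of 31, against 14.1% of all genes. Differences below are d/d minus f/f in log2(intensity + 16) after quantile normalization, ± limma's standard error (n = 3 in each genotype). Adding 16 makes differences of dim genes too small, and values given as times higher or lower are ratios of intensity + 16. Intensities by array are as deposited.

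**Figure D1:**
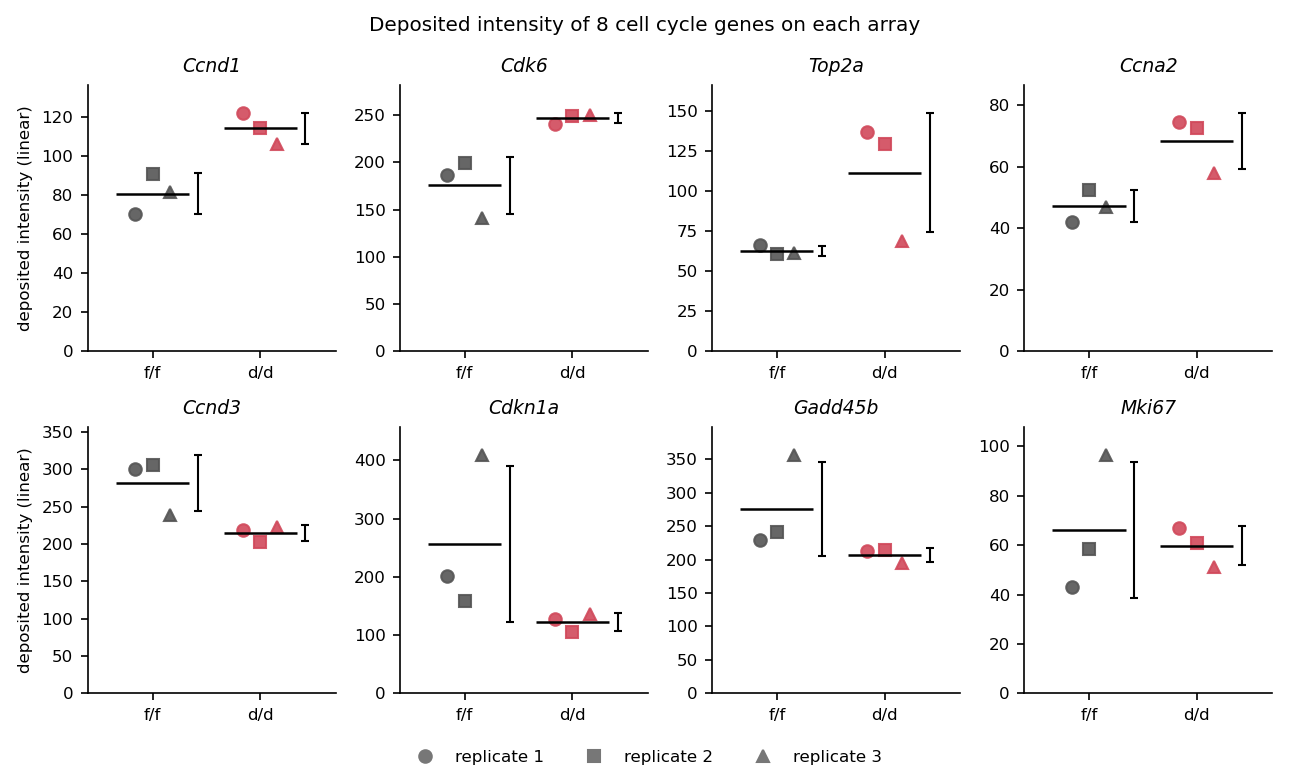
Deposited intensity (vertical axis, linear, from 0) of 8 cell cycle genes on the 3 f/f and 3 d/d arrays; marker shape gives the replicate number, the horizontal line the group mean and the bar beside it ± 1 SD. Ccnd1, Cdk6, Top2a and Ccna2 read higher on every d/d array than on any f/f array, Ccnd3, Cdkn1a and Gadd45b read lower, and f/f replicate 3 is the highest point for Cdkn1a (409), Gadd45b (356) and Mki67 (96.4).

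Among the D-type cyclins and their kinases, which act at the entry to the cycle, 2 genes read higher in d/d, 1 read lower and 2 overlapped. Ccnd1, cyclin D1, the D-type cyclin that hepatocytes use when they re-enter the cycle, had f/f intensities of 70.1, 90.6 and 81.6 and d/d intensities of 122, 114 and 106. The lowest d/d array lay above the highest f/f array. The difference was 0.45 ± 0.12 (95% interval 0.17 to 0.73, 1.37 times higher, adjusted p = 0.303, limma with Benjamini-Hochberg adjustment), and it was 0.41 ± 0.12 without f/f replicate 3. A second probe set of Ccnd1 had 0.52, with groups that did not overlap, and the remaining probe set had 0.053.

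Cdk6, a partner kinase of the D-type cyclins, read 186.5 and 199 on f/f replicates 1 and 2 and 141 on f/f replicate 3. The d/d arrays read 241, 249 and 251, all above the f/f arrays. This gave a difference of 0.49 ± 0.16 (adjusted p = 0.417, limma with Benjamini-Hochberg adjustment), or 0.32 ± 0.09 without f/f replicate 3. A second probe set had 0.34, also with groups that did not overlap, and the remaining probe set, where f/f and d/d arrays were mixed, had -0.13.

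Ccnd3, cyclin D3, ran the other way from Ccnd1. Its f/f arrays read 300.2, 306 and 238, and its d/d arrays 219, 202 and 222. Groups did not overlap, though f/f replicate 3 lay nearer to d/d than to the other f/f arrays. The difference was -0.35 ± 0.13 (adjusted p = 0.553, limma with Benjamini-Hochberg adjustment), and it was -0.48 ± 0.10 without f/f replicate 3 (adjusted p = 0.0811). With arrays weighted by their fit, where f/f replicate 3 had a weight of 0.178, Ccnd3 was past the threshold at -0.46 (adjusted p = 0.0479 by limma with Benjamini-Hochberg adjustment, the lowest of its alternatives, the highest being 0.973). Its other probe sets had -0.18 and -0.24, with overlapping groups. Ccnd2, cyclin D2, had -0.046 ± 0.13 over 7 probe sets that ranged from -0.054 to 0.26, and Cdk4, the other partner of the D-type cyclins, had -0.059 ± 0.13. Leaving out f/f replicate 3 gave 0.071 and -0.17. Groups then did not overlap for any of the 5 genes, 3 higher and 2 lower, where 27.8% of all genes did not overlap.

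Genes of the step from G1 into S phase lay within the spread of the arrays. Ccne1, cyclin E1, which activates Cdk2, read 137, 137 and 225 in f/f and 139, 143 and 123 in d/d. Apart from f/f replicate 3, all arrays lay between 123 and 143. The difference was -0.23 ± 0.17, and -0.040 without that array. Cdk2 had -0.11 ± 0.11 and E2f1, the activator of replication genes, -0.068 ± 0.15, which became -0.058 and 0.071 without it. Other probe sets of E2f1 had -0.20 and -0.19, the latter with groups that did not overlap, and both had -0.23 without that array. Ccne2, cyclin E2, was dim on all arrays, between 18.4 and 35.7.

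On their brightest probe sets the 10 replication genes had overlapping groups after normalization. Mcm2, a subunit of the helicase that is loaded at origins, read 113, 123 and 175 in f/f and 139.6, 143 and 105 in d/d. The highest and the lowest of the 6 arrays belonged to f/f replicate 3 and d/d replicate 3. The difference was -0.054 ± 0.15, and 0.085 ± 0.12 without f/f replicate 3. Pcna, the sliding clamp of the replication machinery, read 449, 449 and 350.4 in f/f and 386, 427 and 431 in d/d, a difference of 0.0096 ± 0.13 (95% interval -0.29 to 0.31). It was -0.11 without f/f replicate 3, where its groups did not overlap. Among Mcm3, Mcm4, Mcm5 and Mcm7, other helicase subunits, differences ran from -0.15 for Mcm4 to 0.026 for Mcm3, and from -0.16 for Mcm4 to 0.12 for Mcm3 without f/f replicate 3. Rrm1 and Rrm2, the subunits of ribonucleotide reductase, which makes deoxynucleotides, had -0.13 ± 0.16 and 0.20 ± 0.13, or -0.27 and 0.16 without it. Rrm2, whose highest array was d/d replicate 1, had 0.099 when that array was left out. For Rrm2 the probe sets differed in sign, from -0.27 to 0.20. Mcm6 and Tyms, thymidylate synthase, lay under the filter, with differences of 0.011 and -0.091 on their brightest probe sets. The 8 replication genes above the filter divided evenly, with 4 positive and 4 negative differences, and 0 had an unadjusted p under 0.05. The highest upper bound among their 95% intervals was 1.4 times higher, for Rrm2.

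**Figure D2:**
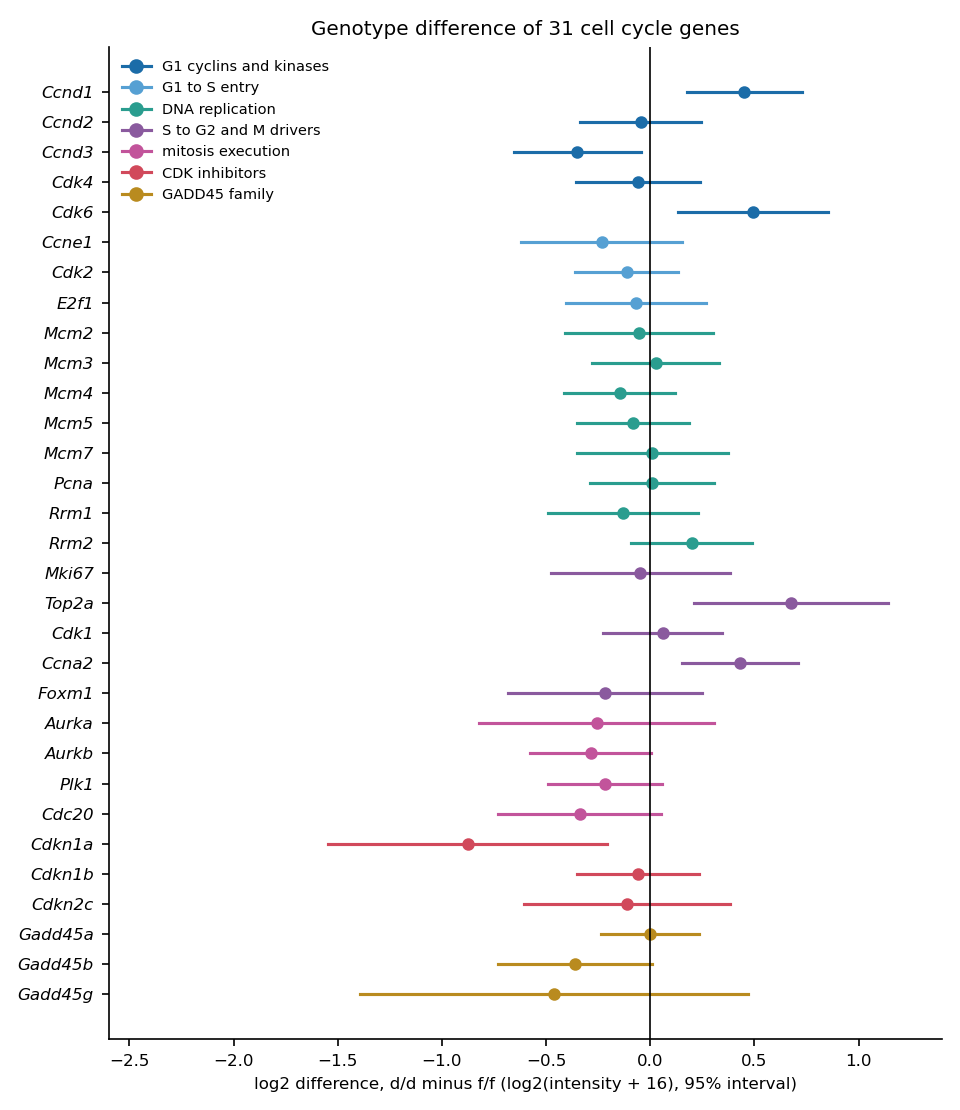
Log2 difference, d/d minus f/f, of log2(intensity + 16) with its 95% interval from limma for the 31 genes above the dim filter, coloured by role. Intervals of 25 genes include 0, and those of Ccnd1, Cdk6, Top2a, Ccna2, Ccnd3 and Cdkn1a do not.

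Of the genes that drive S phase into G2 and mitosis, Top2a and Ccna2 read higher in d/d and the rest did not separate. Top2a, topoisomerase II alpha, which untangles replicated chromosomes, read 66.3, 60.6 and 61.4 in f/f and 137, 129 and 69.0 in d/d. The d/d replicates 1 and 2 lay far above all other arrays, and d/d replicate 3 lay just above the highest f/f array. The difference was 0.68 ± 0.20 (95% interval 0.21 to 1.14, 1.6 times higher, adjusted p = 0.387, limma with Benjamini-Hochberg adjustment). It was 0.61 without f/f replicate 3, and with 1 array left out it was lowest when d/d replicate 1 was omitted (0.53) and highest when d/d replicate 3 was (0.92). The other probe sets of Top2a, both with every array under the filter intensity, had 0.18, where normalized groups did not overlap, and -0.095.

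Ccna2, cyclin A2, the partner of Cdk2 in S phase and of Cdk1 in G2, read 42.1, 52.6 and 46.9 in f/f and 74.6, 72.6 and 58.0 in d/d. All 3 d/d arrays lay above the f/f arrays, again with d/d replicate 3 the lowest of them. The difference was 0.43 ± 0.12 (adjusted p = 0.338, limma with Benjamini-Hochberg adjustment) and 0.38 ± 0.12 without f/f replicate 3. Its second probe set read 22.3 to 33.0 on all arrays, with a difference of -0.0073.

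Mki67, the proliferation antigen Ki-67, read 43.2, 58.6 and 96.4 in f/f and 67.1, 60.9 and 51.3 in d/d. The f/f arrays enclosed all d/d arrays, and the difference was -0.048 ± 0.19 (95% interval -0.48 to 0.38). Without f/f replicate 3 it was 0.15 ± 0.13. Cdk1, the kinase that starts mitosis, was flat, at 56.5, 49.6 and 48.1 in f/f and 49.0, 55.4 and 55.7 in d/d, with 0.060 ± 0.12, or -0.026 without f/f replicate 3. Foxm1, a transcription factor of mitotic genes, had -0.22 ± 0.20, and 0.033 ± 0.10 without f/f replicate 3, whose intensity was 142 where the other arrays had 64.1 to 79.5. Ccnb2, cyclin B2, lay under the filter at 22.0 to 35.4. Among the 8 genes with CHR letters in their promoter windows, Top2a, Cdk1 and Mki67 had differences of 0.68, 0.060 and -0.048. The others had -0.054 for Mcm2, -0.080 for Ccnb2 (under the filter), -0.22 for Plk1, -0.26 for Aurka and -0.34 for Cdc20. Whether the letters bear on these differences was not tested.

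The 4 genes above the filter that carry out mitosis had negative differences, with groups that overlapped after normalization. Birc5, survivin, a subunit of the chromosomal passenger complex, lay under the filter, at 28.4, 28.6 and 31.2 in f/f and 33.5, 38.9 and 27.4 in d/d, with a difference of 0.12 ± 0.11. The kinases Aurka, Aurkb and Plk1 had -0.26 ± 0.25, -0.29 ± 0.13 and -0.22 ± 0.12. Cdc20, the activator of the anaphase-promoting complex, had -0.34 ± 0.17 and f/f values of 147, 136 and 221 against d/d values of 119, 151 and 111. On all 4 genes f/f replicate 3 was the highest array, and without it their differences were nearer to 0, from -0.22 for Aurkb to -0.043 for Aurka. Aurka also depended on d/d replicate 2, with -0.49 when that array was left out. Bub1, a kinase of the spindle checkpoint, lay under the filter with -0.14.

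**Figure D3:**
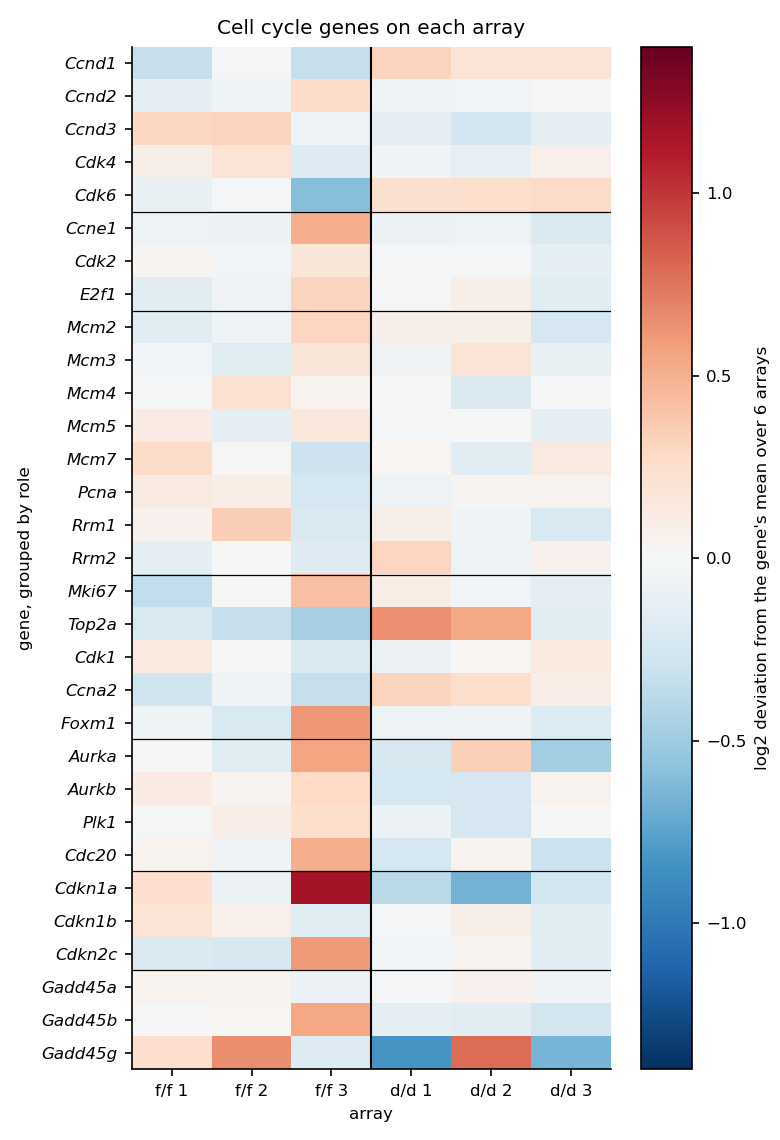
Log2 deviation of each of the 31 genes above the dim filter from its own mean over the 6 arrays (colour scale, red above and blue below the mean), with arrays in columns and genes grouped by role. The column of f/f replicate 3 is red for all genes of G1 to S entry and mitosis and deepest for Cdkn1a. In the same column Cdk6, Top2a and Ccna2 are blue. The median deviation of the 31 genes is 0.15 on f/f replicate 3 and -0.13 on d/d replicate 3.

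Cdkn1a, the inhibitor p21, had the most negative difference of the list over all 6 arrays, and Gadd45g had it without f/f replicate 3. It read 201, 159 and 409 in f/f and 127, 105 and 136 in d/d. The d/d arrays all lay under the f/f arrays, and f/f replicate 3 lay far above the rest. The difference was -0.88 ± 0.29 (95% interval -1.54 to -0.21, 1.84 times lower, adjusted p = 0.452, limma with Benjamini-Hochberg adjustment). Without f/f replicate 3 it was -0.52 ± 0.15 (adjusted p = 0.226), with groups that still did not overlap. The second probe set had -0.70, and its f/f arrays of 79.8, 73.7 and 158 likewise lay above its d/d arrays of 55.5, 47.9 and 59.1. Cdkn1b, the inhibitor p27, had -0.059 ± 0.13, or -0.16 without it. Cdkn2c, the inhibitor p18 of Cdk4 and Cdk6, read 319 on f/f replicate 3 and 168 to 209 on the other arrays, so its difference of -0.11 ± 0.22 became 0.16 ± 0.10 without that array.

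The GADD45 genes, which are induced by stress and growth arrest, gave 3 different patterns. Gadd45b read 229, 240.8 and 356 in f/f and 213, 214 and 195 in d/d. Groups did not overlap, and the nearest arrays, f/f replicate 1 and d/d replicate 2, were close together. The difference was -0.36 ± 0.16 (adjusted p = 0.65, limma with Benjamini-Hochberg adjustment), and -0.18 ± 0.10 without f/f replicate 3. Its other probe sets had -0.38, with groups that did not overlap, and -0.15. Gadd45g scattered widely, at 176, 242 and 141 in f/f and 77.7, 270.4 and 84.6 in d/d. A single d/d array was the highest of all 6 and the other d/d arrays were the lowest, with a difference of -0.46 ± 0.41 that was -0.68 without f/f replicate 3, -0.98 when d/d replicate 2 was left out and -0.17 when d/d replicate 1 was. Gadd45a had -0.0013 ± 0.10, on arrays between 44.5 and 53.2, and -0.043 without f/f replicate 3.

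As a list, the 31 genes had 22 negative and 9 positive differences, 53.5% of all genes being negative, and a median of -0.068, where all genes had -0.015. Without f/f replicate 3, 19 were negative, against 52.0% of all genes, and the median was -0.043, where all genes had -0.0071. For 30 of the 31 genes the upper 95% bound was under 2 times higher, the exception being Top2a at 2.21, and for 27 it was under 1.5 times. The lower bound was above 2 times lower for 29, the exceptions being Cdkn1a at 2.92 and Gadd45g at 2.63. The upper bound was 1.3 for Mki67, 1.27 for Cdk1, 1.24 for Pcna and 1.04 for Plk1.

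**Figure D4:**
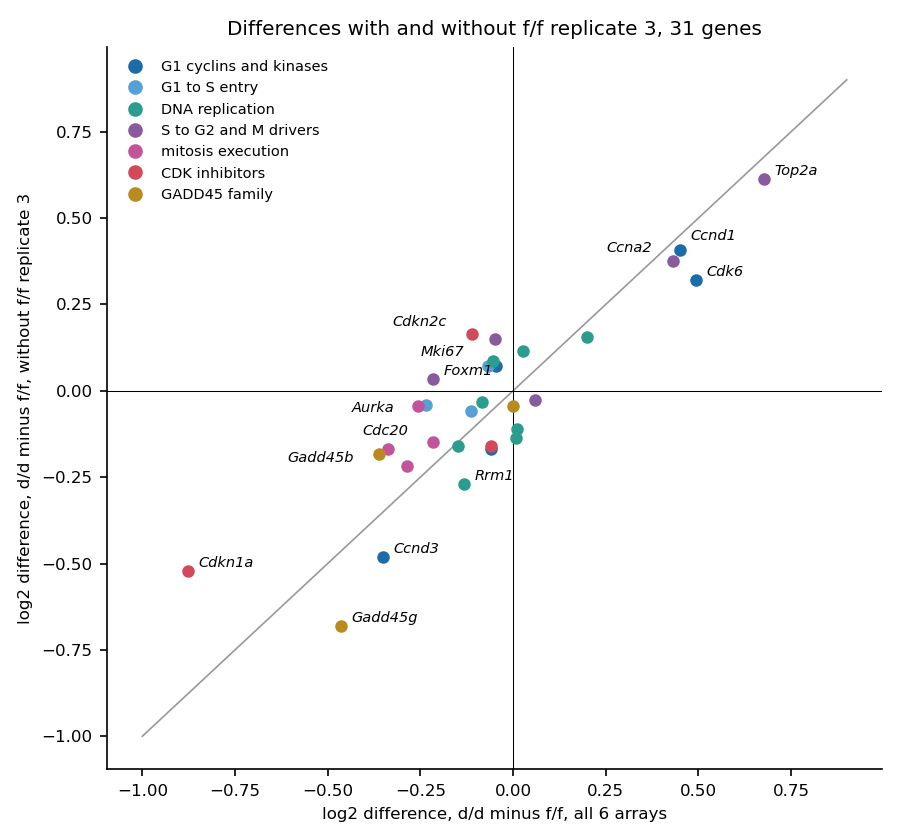
Log2 difference, d/d minus f/f, of the 31 genes from all 6 arrays (horizontal axis) and without f/f replicate 3 (vertical axis), coloured by role, with the line of equal values. Ccnd1, Cdk6, Ccna2 and Top2a lie at the upper right and Ccnd3, Cdkn1a and Gadd45g at the lower left, and Mki67, Foxm1 and Cdkn2c are among the genes that change sign.

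In a fit of all 34945 single-symbol probe sets with no dim filter, 0 of the 90 passed (limma, Benjamini-Hochberg adjustment), where 0.0744% of all did. An unadjusted p under 0.05 was reached by 14 of the 90, 6 higher and 8 lower, against 6.81% of all probe sets, 4.01% higher and 2.80% lower. Both probe sets of Cdkn1a were among the lower ones, with 2 of 3 for Gadd45b and 1 each for Ccnd3, Rrm2, Tyms and Aurkb. The higher ones were 2 of 3 for Ccnd1, 2 of 3 for Cdk6, 1 of 3 for Top2a and 1 of 2 for Ccna2. Of 27 genes with several probe sets, 12 had the same sign on all of them, Cdkn1a, Ccnd1, Ccnd3 and Gadd45b included. The probe sets of 1 gene share its RNA and are no replicates of each other.

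**Figure D5:**
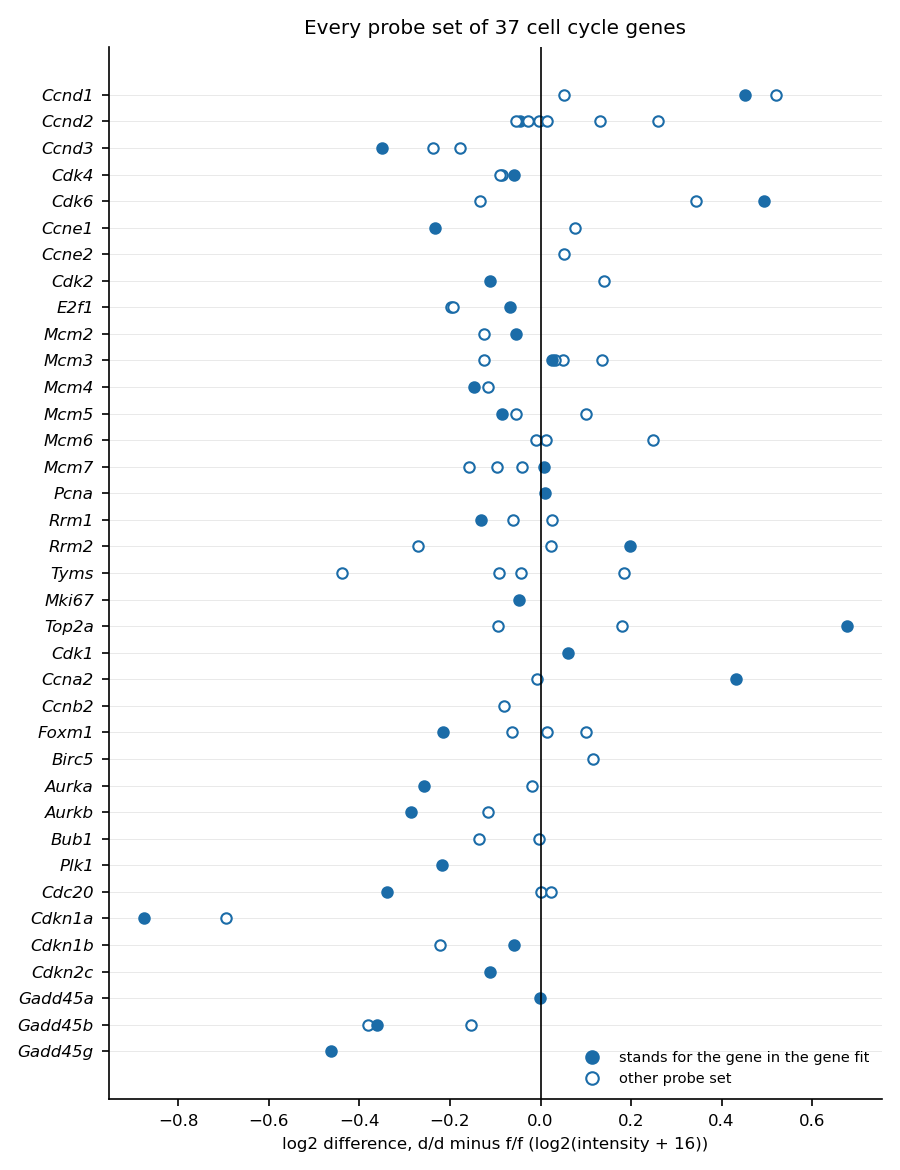
Log2 difference, d/d minus f/f, of all 90 probe sets of the 37 genes in a fit without a dim filter; filled points are the probe sets that stand for a gene in the gene fit and open points the others. Points of Cdkn1a, Ccnd3 and Gadd45b all lie left of 0, and for Top2a and Ccna2 a single filled point lies apart from the rest.

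Beyond the list, 113 further cell cycle genes were read in 5 lists, 81 of them above the filter. None passed in limma with Benjamini-Hochberg adjustment, and 9 had an unadjusted p under 0.05, 5 higher and 4 lower, against 7.82% of all genes. Among 13 other replication genes 2 of the 9 read higher: Tk1, thymidine kinase, which salvages thymidine for DNA synthesis, and Orc1, a subunit of the origin recognition complex. Tk1 read 99.5, 133 and 108 in f/f and 160.2, 204 and 204 in d/d, with groups that did not overlap and 0.68 ± 0.15 (adjusted p = 0.203, limma with Benjamini-Hochberg adjustment), or 0.62 without f/f replicate 3. Orc1 read 92.6, 77.3 and 156 in f/f and 227, 229 and 141 in d/d. Its groups overlapped as deposited and not after normalization, with 0.82 ± 0.23, 1.05 without f/f replicate 3, and -0.035 on its lowest probe set. Medians were -0.13 over these 13 genes, -0.042 over 21 other mitosis genes, 0.0037 over 13 genes of the RB, E2F and DREAM complexes and -0.0025 over 16 p53 targets and other inhibitors.

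Of the 21 mitosis genes and of the 13 RB, E2F and DREAM genes, 0 had an unadjusted p under 0.05 in limma and 0 passed after adjustment, and 1 and 2 had such an unadjusted p without f/f replicate 3, against 11.2% of all genes. In the p53 list 2 of 16 genes had an unadjusted p under 0.05, 1 in each direction, against 7.82% of all genes. Of these Plk3, a stress-induced kinase of the Polo family, had -0.36 ± 0.15, and -0.36 without f/f replicate 3, and Tnfrsf10b, a death receptor chosen here after its values were seen, had 0.43 ± 0.18 with overlapping groups, and 0.53 without that array. The 16 genes of that list had 8 positive and 8 negative differences. Of 18 other cyclins and kinases 5 had an unadjusted p under 0.05, 2 higher (4.75% of all genes) and 3 lower (3.07%). They included Ccnt1 (0.41 ± 0.12) and Ccnt2 (-0.58 ± 0.15), cyclins of the kinase that releases paused RNA polymerase II, and Ccnc (-0.50 ± 0.13), a subunit of the Mediator kinase module, which all serve transcription. These were 0.32, -0.49 and -0.45 without f/f replicate 3. The rest of the 5, named here after their values were seen, were Ccnl2 (0.34 ± 0.12) and Ccng2 (-0.31 ± 0.13). Ccnl2 had 0.24 and Ccng2 -0.45 without that array. Ccnt2 and Ccnc had probe sets of the opposite sign, up to 0.36 and 0.23.

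Liver holds other cells that can cycle, and in bulk RNA fewer cells of a type and less RNA per cell cannot be told apart. All 8 hepatocyte markers were above the filter, with summed normalized intensities of 151159 to 153651 in f/f and 147594 to 149949 in d/d. Among them Ass1 read only 79.5 to 138, where the others read 5561 or more, so it added little to the sums. Whether its probe set reports Ass1 well was not tested. Quantile normalization sets the brightest values by rank, so these sums depend on the scaling. As deposited, Alb read 33786, 34157 and 33743 in f/f and 35676, 35800 and 34684 in d/d. Normalization left it no difference, because a probe set of the same rank on every array receives the same value. Its normalized values therefore cannot show whether Alb differed. Differences of the 8 markers ran from -0.39 for Tat to 0.083 for Fgb. Of 11 Kupffer cell markers, 10 had negative differences, with sums of 3147 to 4306 in f/f and 2707 to 3387 in d/d. The sums of 8 stellate cell and fibroblast markers were 2925 to 3409 and 2374 to 2896. Most of the latter came from Dcn, which read 1980, 2164 and 2029 in f/f and 1466, 1788 and 1782 in d/d. Of these 8 markers, 3 had positive and 5 negative differences. The 8 markers of sinusoidal endothelium had sums of 1186 to 1423 and 1243 to 1489. Neutrophil markers, 5 above the filter, had 323 to 419 and 416 to 465, with Mpo, myeloperoxidase, at 68.2, 78.2 and 116 in f/f and 185, 136 and 85.3 in d/d. Their differences, 4 positive and 1 negative, ran from -0.011 for Elane to 0.54 for Mpo. Over all 6 arrays the normalized groups overlapped for each of the 5. Lymphocyte markers, 6 of 11 above the filter, had 496 to 745 and 519 to 654, and Ms4a1, the B cell antigen CD20, had 0.93 ± 0.19. The other 5 lymphocyte markers had negative differences, from -0.28 for Ptprc to -0.073 for Cd8a, with -0.15 for the B cell marker Cd79a. Leaving out f/f replicate 3, Ms4a1 had 0.85, Cd79a -0.12, Ptprc 0.0058 and Mpo 0.69, and 0 markers passed in limma with Benjamini-Hochberg adjustment. Of 6 cholangiocyte markers 2 were above the filter, with sums of 107 to 140 and 119 to 122, and 3 erythroid markers had 899 to 1056 and 838 to 1051. The part of these cells in the values of Top2a, Ccna2 and the other genes was not tested.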

How the data were processed

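Liver RNA was read on single-colour Affymetrix arrays. What the authors deposited is 1 linear intensity for each probe set and array. The sources used here do not give their summary method or scaling. Of 45101 probe sets, 34945 had 1 gene symbol in the platform annotation, 932 several and 9160 none, beside 64 controls. Arrays were grouped by genotype from the labels.

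Intensities were quantile normalized and used as log2(intensity + 16). The dimmest 40% of probe sets were dropped, each gene was read on its brightest remaining probe set, and the genotypes were compared with limma 3.58.1 (lmFit, eBayes; R 4.3.3), with Benjamini-Hochberg adjustment and a threshold of 0.05. A second fit took all single-symbol probe sets. The fit was tested on simulated data. Alternatives covered scaling, pseudocounts, filter, probe set choice, variance model, array weights, replicate block, each array left out and threshold. Promoter windows were matched by symbol in a RefSeq table of GRCm38.p6, used for sequence only. Figures used matplotlib 3.10.9, pandas 2.3.3 and Python 3.11.15.

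The members and lists were chosen with earlier results of these data known. The rule named all members, with array values for those with an unadjusted p under 0.05 or separate groups and for the first of each other role group, and up to 3 genes of each further list. Array values of other genes, and the marker genes named, were added after their values were seen. The motif words were also chosen then. Groups of 3 were too small for a test of outliers.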

Additional observations from a re-analysis of the deposited data

How the results depend on the processing

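Across 18 alternatives the count of cell cycle genes past the threshold was 0 in limma, except with array weights, where 1 passed, Ccnd3. The list had 4 to 8 genes at an unadjusted p under 0.05, where all genes had 4.91% to 13%. Genes called over all genes were 13, and 20 averaged over probe sets, 21 with trend and robust variance, 216 with array weights, 21 at a threshold of 0.1, and with 1 array left out from 4 (d/d replicate 1 omitted) to 85 (f/f replicate 3 omitted). With the replicate number as a block, 6 genes and 0 of the 31 passed. Deviations of same-numbered arrays from their group means correlated at -0.0033, -0.14 and -0.47. Arrays with different numbers were not compared in this way, so these values cannot tell whether the numbers pair the arrays. The count of genes of the list whose groups did not overlap ran from 7 to 12 with 1 array left out, where all genes had 21.4% to 27.8%, and the 7 without d/d replicate 1 stood beside 22.3%.

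Of 550 values of single genes, 40 turned sign, and 14 of the 31 genes turned under none of the alternatives, Ccnd1, Top2a, Ccna2, Ccnd3, Cdkn1a and Gadd45b among them. Changes of the threshold, the variance model, the replicate block and the filter left each difference as it was. No sign could turn under those settings, though their values are counted in the 550. Averaged over probe sets, Ccnd2 had 0.039, Cdk2 0.014, Mcm7 -0.071 and Rrm2 -0.017. With array weights Ccnd2 had 0.044, Cdk1 -0.031, Cdkn2c 0.13, E2f1 0.059, Foxm1 0.0082, Mcm2 0.091, Mcm7 -0.11, Mki67 0.14 and Pcna -0.10. On its most variable probe set Cdk6 had -0.13, with a common median Gadd45a had 0.0014, and as deposited Mcm7 had -0.016. With 1 array left out Ccnd2 ran from -0.12 to 0.071, Cdk1 from -0.026 to 0.14, Cdk4 from -0.17 to 0.020, Cdkn1b from -0.16 to 0.019, Cdkn2c from -0.25 to 0.16, E2f1 from -0.17 to 0.071, Foxm1 from -0.38 to 0.033, Gadd45a from -0.043 to 0.021, Mcm2 from -0.14 to 0.085, Mcm3 from -0.066 to 0.12, Mcm7 from -0.14 to 0.14, Mki67 from -0.23 to 0.15, Pcna from -0.11 to 0.074 and Rrm1 from -0.27 to 0.0071. The cause of these turns was not tested. Arrays of 3 a group limit the precision, and many of the genes lie near the filter.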
